A study of Mus musculus with 40 samples.

Results

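Matrix metalloproteinases (MMPs) are zinc-dependent proteases that cut the proteins of the extracellular matrix, and their tissue inhibitors (TIMPs) bind the active enzymes and block them. The 10 genes described here are 6 MMPs (Mmp8, Mmp9, Mmp12, Mmp13, Mmp14 and Mmp19), 3 inhibitors (Timp1, Timp2 and Timp3) and Adam8, a membrane-bound protease of the related ADAM family. They were taken from the 27179 genes of the expression table by symbol, as a family in which Mmp8 and Mmp12 differ between genotypes at every time. The genotype differences of these genes therefore took part in their choice and are given as a description, without a test. The changes after LPS, and the differences of those changes for the other members, are tested.

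The libraries come from bone marrow-derived macrophages (BMDMs), cells grown from bone marrow for 7 days in L-cell conditioned medium, a source of the growth factor M-CSF. The marrow came from 4 WT and 4 Cpeb4-/- mice, all males of a mixed C57BL/6J and 129 background. The knockouts lack Cpeb4 in the whole animal. CPEB4 is a protein that binds cytoplasmic polyadenylation elements (CPEs) in mRNAs. Cells of each mouse were left untreated (0 hr) or given 10 ng/ml LPS, a bacterial membrane component that activates macrophages, for 1, 3, 6 or 9 hr. This gave 40 libraries, 4 for each genotype and time. Each mouse gave all 5 times, 2 mice of each genotype were in each of 2 batches, and no cage held both genotypes, so cage and genotype cannot be told apart. The values are regularized log (rlog) expression, a log2 scale corrected for library size, on which a difference of 1 is a doubling. Read depth is not part of the table, and rlog draws weakly expressed genes toward their mean.

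Most MMPs are secreted as inactive precursors. Mmp8 and Mmp13 are collagenases, Mmp9 is a gelatinase, Mmp12 is the macrophage metalloelastase, and Mmp14 is held in the cell membrane, where it can activate other MMPs. In macrophages the family is known for matrix turnover during inflammation and repair. TIMP2 also takes part in activation of pro-MMP2 by MMP14, and TIMP3 is bound to the matrix.

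Cpeb4, the deleted gene, was checked first. After 6 hr of LPS the WT libraries had an rlog of 10.09 to 10.67 and the Cpeb4-/- libraries of 8.74 to 9.66, without overlap. At 0, 1, 3 and 9 hr the genotypes overlapped, with differences of −0.24, 0.37, −0.55 and −0.31. A value summed over the gene does not separate the remaining exons from the deleted one, so it is a partial check of the labels. All 7 macrophage markers were expressed, with Adgre1 at an rlog of 15.51 to 16.45. Their summed level (the sum of 2 to the power of rlog) was 483000 to 608000 in WT and 385000 to 464000 in Cpeb4-/- at 0 hr. This sum mostly follows Lyz2, with a mean rlog of 18.24 over all libraries against 15.94 for Adgre1, the next highest. Between genotypes 0 of the 7 passed an adjusted p under 0.05 (limma) at 0 hr. No marker of B or T cells passed the filter on low expression.

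In untreated WT macrophages the proteases spanned a wide range. Per kilobase of exon, and on the linear scale of 2 to the power of rlog, Adam8 was at 6080 ± 504 (SD, n = 4) and Mmp12 at 4480 ± 610, followed by Timp2 at 1990 ± 170 and Mmp13 at 1470 ± 67.2. These 4 genes were separate from each other in the 4 WT libraries. Mmp19 (203 ± 22.2) and Mmp14 (179 ± 5.38) overlapped, as did Mmp8 (110 ± 19.7) and Mmp9 (92.3 ± 10.8), with Timp1 between these pairs at 149 ± 12.2. Timp3 was at 0.165, the lowest of the members, and was the 1 member that failed the filter of a mean rlog of at least 2.32. The other 9 members were tested.

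LPS reordered these levels. At 6 hr in WT, Mmp13 led with 23700 ± 1160 per kilobase, Mmp12 followed at 4830 ± 673, and Adam8 (3530 ± 371) and Mmp14 (3190 ± 183) overlapped. Mmp8 was the lowest of the tested members at 93.4 ± 7.71. In untreated Cpeb4-/- cells Mmp12 (6370 ± 772) and Adam8 (5480 ± 209) overlapped at the top, and Mmp8 (196 ± 21.5) overlapped with Mmp14 (185 ± 5.77).

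**Figure D1:**
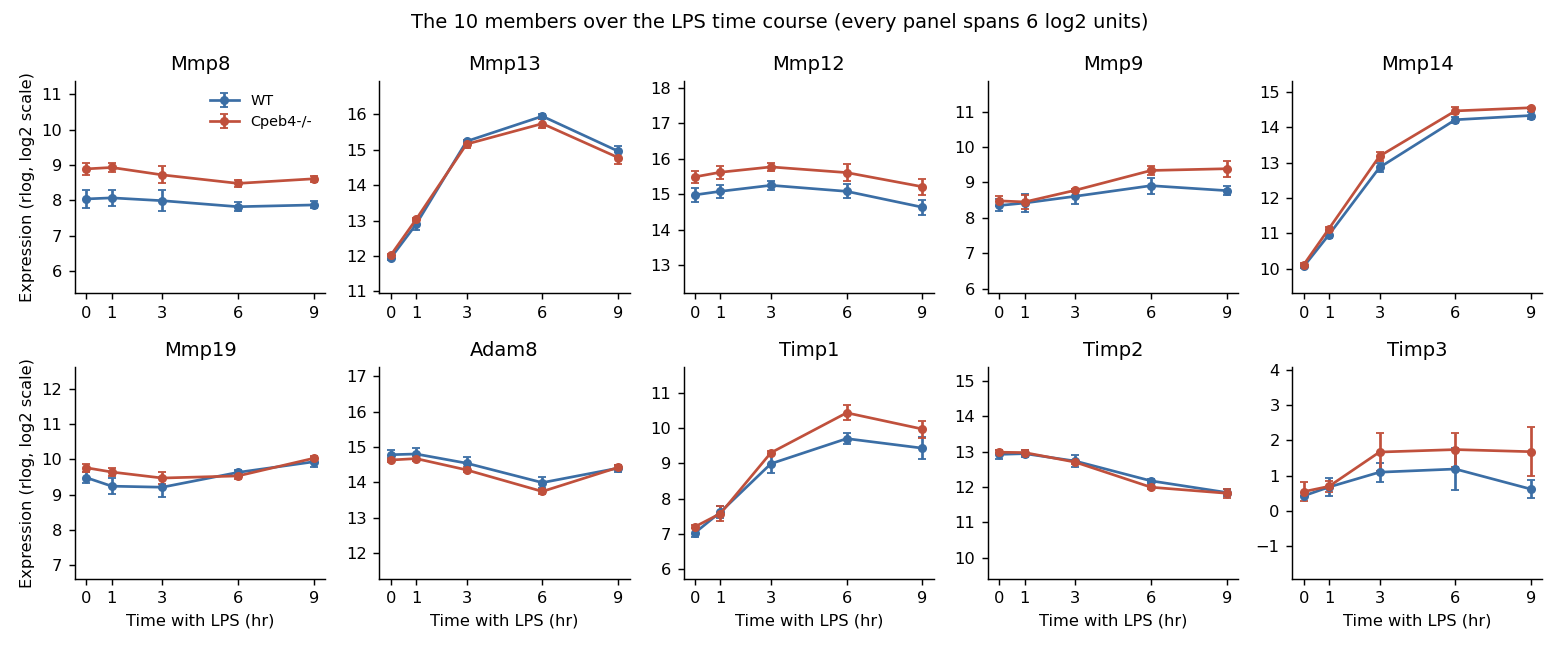
Expression (rlog, log2 scale) of the 10 genes against hours of LPS in WT and Cpeb4-/- BMDMs. Points joined by lines are means of 4 libraries, and bars are the SD. Mmp13, Mmp14 and Timp1 climb steeply in both genotypes, Timp2 falls, and Mmp8 and Mmp12 run as separate lines for the genotypes.

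Mmp8 and Mmp12 lie on chromosome 9 (mm10), Mmp12 at chr9:7344397-7360461 and Mmp8 at chr9:7558429-7568486, with 198 kb between them and Mmp13 61.1 kb before Mmp12. Promoter windows of the family are shown because Mmp13, Mmp14 and Timp1 rose together. RefSeq promoters (GRCm38.p6, 250 bases before to 50 after a start) were at hand for 8 members in 9 entries. AP-1 (TGANTCA, both strands) is bound by the Jun and Fos proteins, and PU.1 (GAGGAAG, both strands) is a macrophage factor. Each match below is in capitals, all on the plus strand of the genome, and the PU.1 matches read on the opposite strand.
Mmp13, AP-1, chr9:7272468-7272496: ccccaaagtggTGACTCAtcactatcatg
Mmp12, AP-1, chr9:7347319-7347347: gacatcaacagTGAGTCAgatagaggatt
Mmp12, PU.1, chr9:7344299-7344327: cacttcacccaCTTCCTCttccaagactc
Mmp8, PU.1, chr9:7558198-7558226: aactagcacaaCTTCCTCattacacacag

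The AP-1 match of Mmp13 lies 35 bases before its start. That of Mmp12 lies 44 bases before a second annotated start, and its PU.1 match 87 bases before the first. The PU.1 match of Mmp8 lies 220 bases before the start. Of 32851 promoters of this length, 7.8% hold the AP-1 letters and 13.6% the PU.1 letters. The promoters of Mmp14 and Timp1 held neither motif in this window.

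Mmp8 was higher in Cpeb4-/- BMDMs at all 5 times. In untreated cells the 4 Cpeb4-/- libraries (mice 2, 3, 55 and 62) had an rlog of 9.07, 8.91, 8.68 and 8.90, and the 4 WT libraries (mice 25, 69, 87 and 88) of 7.84, 8.08, 7.87 and 8.38. All Cpeb4-/- values lay above all WT values. The difference was 0.84 (SE 0.12), a ratio of 1.79. At 6 hr the Cpeb4-/- libraries had 8.61, 8.48, 8.4 and 8.44 and the WT libraries 7.76, 7.74, 7.80 and 7.99, a difference of 0.66 (SE 0.07). The groups were again separate. At 1, 3, 6 and 9 hr the ratio was 1.82, 1.66, 1.58 and 1.66. The gap between the groups was smallest at 3 hr (0.09), where WT mouse 88 reached 8.37 and Cpeb4-/- mouse 3 fell to 8.46.

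Mmp12, far more abundant, showed a smaller difference in the same direction. In untreated cells the Cpeb4-/- libraries (mice in the same order) had 15.29, 15.69, 15.54 and 15.42 and the WT libraries 14.84, 15.25, 14.87 and 14.94. The genotypes were separate by 0.04, between WT mouse 69 and Cpeb4-/- mouse 2. The difference was 0.51 (SE 0.10). At 6 hr the Cpeb4-/- libraries had 15.40, 15.95, 15.61 and 15.46 and the WT libraries 14.86, 15.32, 15.00 and 15.15, a difference of 0.52 (SE 0.12). All Cpeb4-/- libraries were above all WT libraries here too. Over the 5 times the ratio lay between 1.42 and 1.49.

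**Figure D2:**
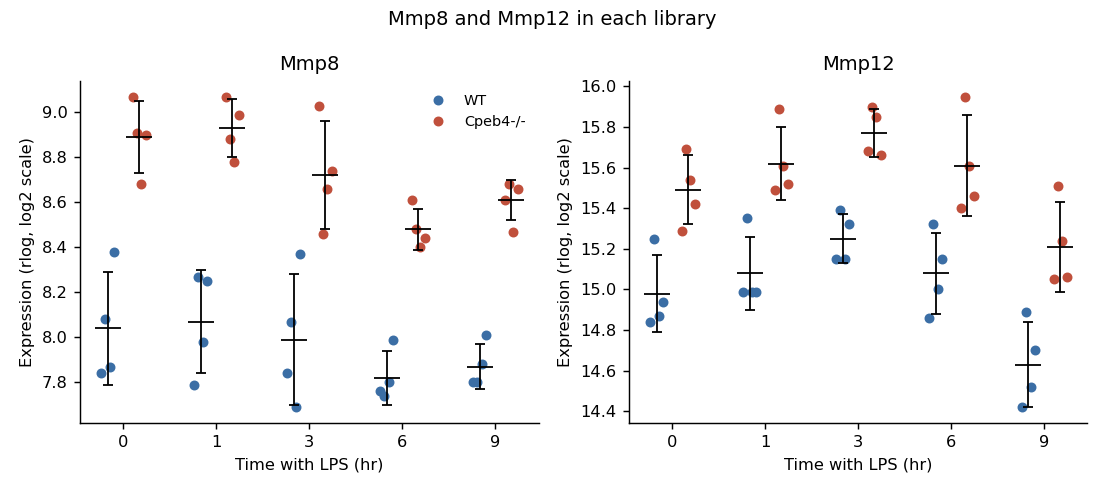
Expression (rlog, log2 scale) of Mmp8 and Mmp12 in each of the 40 libraries by hours of LPS, with points for libraries and bars for the group means and their SD. At every time the 4 Cpeb4-/- points lie above the 4 WT points for both genes, with the smallest gaps of 0.09 for Mmp8 at 3 hr and 0.04 for Mmp12 at 0 hr.

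Because the genotypes did not overlap in Mmp8 or Mmp12 at any time, the differences within batches could not change sign. Their sizes are given as a description. For Mmp8 they were 0.49 to 0.92 in batch 1 and 0.70 to 0.96 in batch 2, and for Mmp12 0.54 to 0.72 in batch 1 and 0.34 to 0.50 in batch 2. Relative to the WT mean of each time, Cpeb4-/- mice 2, 3, 55 and 62 were on average higher in Mmp8 by 0.92, 0.72, 0.64 and 0.79, whereas the 4 WT mice lay between −0.15 and 0.24. For Mmp12 the Cpeb4-/- mice were higher by 0.37, 0.78, 0.57 and 0.42, and the WT mice lay between −0.15 and 0.24. The Cpeb4-/- mouse highest in Mmp8 (mouse 2) was the lowest of the 4 in Mmp12.

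**Figure D3:**
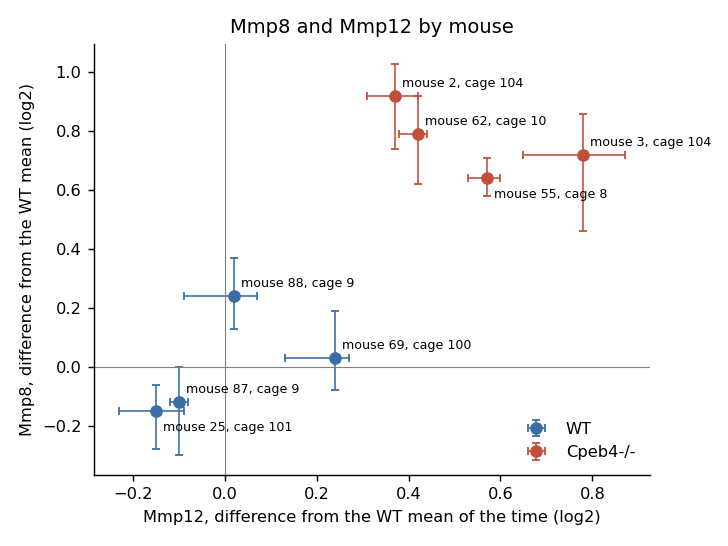
Mean difference from the WT mean over the 5 times (rlog, log2 scale) for Mmp8 on one axis and Mmp12 on the other, 1 labelled point per mouse. The 4 Cpeb4-/- mice lie at 0.64 to 0.92 for Mmp8 and 0.37 to 0.78 for Mmp12, away from the 4 WT mice, which lie between −0.15 and 0.24 on both axes.

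The other members differed less evenly with time. Timp1, an inhibitor of most secreted MMPs, differed by 0.16 (SE 0.07) in untreated cells, and after 6 and 9 hr of LPS by 0.73 (SE 0.10) and 0.54 (SE 0.15). Its values at 6 hr were 10.30, 10.71, 10.24 and 10.47 in Cpeb4-/- and 9.61, 9.89, 9.55 and 9.76 in WT, so the groups were separate there, whereas they overlapped at 9 hr. Mmp9 differed by 0.44 (SE 0.10) at 6 hr and 0.62 (SE 0.11) at 9 hr, and its groups were separate at both times. Mmp14 was higher by 0.25 (SE 0.06) at 6 hr, also without overlap.

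Adam8 and Timp2 went the other way at 6 hr. Adam8 had a difference of −0.25 (SE 0.07) and Timp2 of −0.18 (SE 0.04), both without overlap. Mmp13 had −0.21 (SE 0.06) with overlapping libraries. Mmp19 differed by 0.29 (SE 0.08) at 0 hr and −0.10 (SE 0.05) at 6 hr. Timp3 stayed low (0.41 to 2.71 over all libraries), and its difference at 9 hr, 1.06, was not tested.

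**Figure D4:**
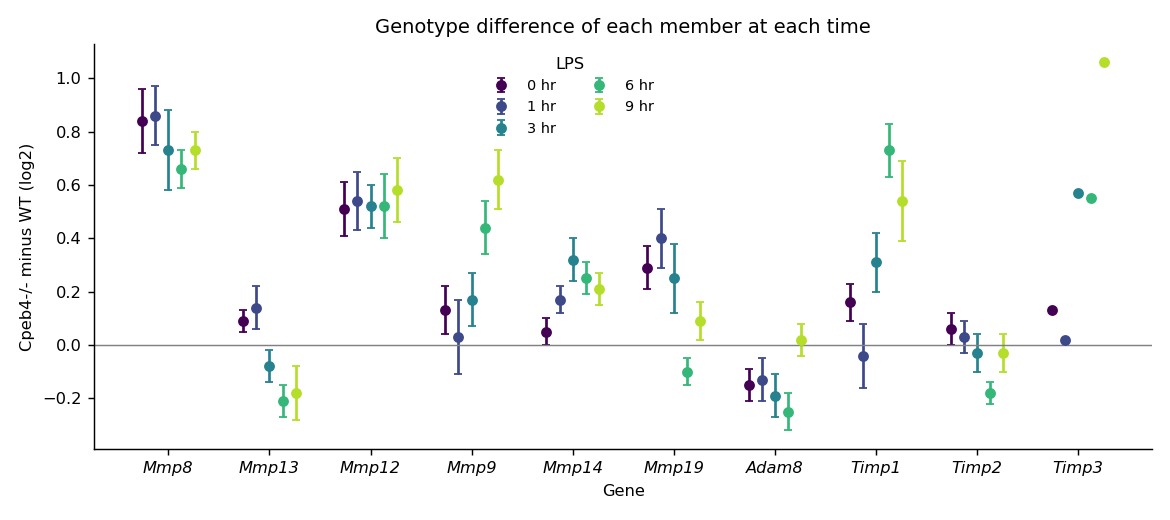
Difference in expression, Cpeb4-/- minus WT (rlog, log2 scale), of the 10 members at each time, with bars for the SE from 4 libraries a genotype. Timp3, weakly expressed and not tested, is drawn without an SE and reaches 1.06 at 9 hr. Mmp8 (0.66 to 0.86) and Mmp12 (0.51 to 0.58) stand above 0 at all times, and Timp1, Mmp9 and Mmp14 are highest at 3 to 9 hr.

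At an adjusted p under 0.05, 2, 2, 2, 8 and 3 of the 9 tested members were past the threshold at the 5 times in turn. Over all genes the shares were 1.31%, 1.91%, 3.68%, 16.3% and 7.91%. Libraries of the genotypes did not overlap for 3, 3, 3, 7 and 4 of these 9 at the 5 times, beside 10.5%, 15.7%, 13.6%, 20.2% and 16.9% of all genes. Since the genes were chosen by this contrast, nothing is read from these counts.

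Next came the question how LPS itself moved the family. In WT, 3, 7, 6 and 8 of 9 tested members were called at 1, 3, 6 and 9 hr (limma, adjusted p under 0.05), beside 37.7%, 69.9%, 79.9% and 73.7% of all genes. In Cpeb4-/- the counts were 3, 8, 8 and 9, beside 41.9%, 69.9%, 77.9% and 71.3%. The count at 3 hr in WT fell to 3 without WT mouse 25. At 9 hr the tested members had a median change of 0.42 in WT and 0.26 in Cpeb4-/-, against −0.004 and −0.008 over all genes. Over all genes rises and falls offset each other in this signed median, and the median absolute change was 0.407 in WT and 0.381 in Cpeb4-/-. Of the members called at 9 hr, 5 rose and 3 fell in WT, and 5 rose and 4 fell in Cpeb4-/-.

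Mmp13, Mmp14 and Timp1 carried the large responses. Mmp13 rose from 11.92, 12.03, 11.87 and 11.93 in the untreated WT libraries to 15.99, 16.03, 15.91 and 15.88 at 6 hr. The change was 4.01 (SE 0.08), 16.16-fold (limma, adjusted p = 2.1e-32), and in Cpeb4-/- it was 3.71, 13.12-fold. From 6 to 9 hr Mmp13 fell by 0.99 in WT (adjusted p = 1.4e-13) and by 0.96 in Cpeb4-/- (adjusted p = 4.4e-13). It had thus passed its highest measured level in both genotypes by 9 hr.

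In WT Mmp14 had risen by 0.91 at 1 hr, beside 0.95 for Mmp13, but its highest mean in both genotypes was at 9 hr. Its untreated WT libraries had 10.07, 10.11, 10.01 and 10.04, and at 9 hr 14.37, 14.47, 14.27 and 14.23. The change at 9 hr was 4.28 (SE 0.06), 19.37-fold (adjusted p = 1.5e-35), and 4.44 in Cpeb4-/- (21.72-fold). From 6 to 9 hr it moved by 0.12 in WT (adjusted p = 0.094, and 0.014 with the mouse as a block) and by 0.09 in Cpeb4-/- (adjusted p = 0.24).

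Timp1 rose from 7.01, 7.02, 7.21 and 6.94 in WT to 9.61, 9.89, 9.55 and 9.76 at 6 hr, a change of 2.66 (SE 0.13, adjusted p = 5.4e-20). In Cpeb4-/- it went from 7.16, 7.23, 7.24 and 7.19 to 10.30, 10.71, 10.24 and 10.47, a change of 3.22 (SE 0.13, adjusted p = 1.8e-22). Timp1 rose in both genotypes, 6.32-fold and 9.35-fold. By 9 hr it had fallen from 6 hr by 0.46 in Cpeb4-/- (adjusted p = 0.0031) and changed by −0.27 in WT (adjusted p = 0.072, and 0.049 with the mouse as a block). At 1 hr the rise in Cpeb4-/- (0.37, adjusted p = 0.020) was not called without mouse 2, 3 or 62 of that genotype.

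Timp2 and Adam8 fell. Timp2, at 12.89, 12.82, 12.87 and 13.09 in untreated WT libraries, was at 11.80, 11.89, 11.73 and 11.94 at 9 hr, a change of −1.08 (SE 0.07, adjusted p = 7.9e-17). In Cpeb4-/- the change was −1.17 (adjusted p = 9.2e-18). Timp1 and Timp2 thus moved in opposite directions in all 8 mice. Adam8 fell by 0.79 at 6 hr in WT (−0.79, adjusted p = 1.8e-11) and came back by 0.40 from 6 to 9 hr (adjusted p = 3.6e-05). In Cpeb4-/- it fell by 0.89 at 6 hr (adjusted p = 7.6e-13) and regained 0.68 (adjusted p = 3.1e-09). At 3 hr the call of Adam8 in WT (−0.24) was lost without WT mouse 25, and that of Timp2 (−0.19) without WT mouse 25 or 87. At 9 hr the call of Adam8 in Cpeb4-/- (−0.21, adjusted p = 0.014) was lost without mouse 3 of that genotype.

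Mmp9 rose modestly. Its WT libraries had 8.35, 8.15, 8.56 and 8.32 at 0 hr and 8.98, 8.90, 9.15 and 8.60 at 6 hr, a change of 0.56 (SE 0.12, adjusted p = 0.0001). In Cpeb4-/- the values went from 8.45, 8.30, 8.52 and 8.64 at 0 hr to 9.51, 9.35, 9.08 and 9.60 at 9 hr, a change of 0.91 (adjusted p = 4.6e-08), against 0.42 in WT (adjusted p = 0.0027). Each of the 8 mice was higher at 6 and 9 hr than at 0 hr. At 3 hr the change was 0.27 in WT (adjusted p = 0.055, and 0.0086 with the mouse as a block) and 0.30 in Cpeb4-/- (adjusted p = 0.030), the latter not called without mouse 2, 3 or 55 of that genotype.

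Mmp19, a secreted MMP found in many tissues, dipped before it rose. In WT it changed by −0.27 at 3 hr (adjusted p = 0.024, not called without WT mouse 25) and by 0.45 at 9 hr (adjusted p = 0.00026). In Cpeb4-/- it changed by −0.30 at 3 hr (adjusted p = 0.012, not called without mouse 3), by −0.23 at 6 hr (adjusted p = 0.043) and by 0.26 at 9 hr (adjusted p = 0.027). Of the last pair of calls, that at 6 hr was lost without Cpeb4-/- mouse 3, 55 or 62 or WT mouse 88 (−0.27 to −0.16 on leaving out single mice), and that at 9 hr without Cpeb4-/- mouse 2, 55 or 62 (0.22 to 0.32). In WT the change at 1 hr was −0.24 (adjusted p = 0.071, and 0.015 with the mouse as a block).

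Mmp8 and Mmp12, which separated the genotypes throughout, moved little with LPS. Mmp8 fell by 0.40 at 6 hr in Cpeb4-/- (−0.40, SE 0.12, adjusted p = 0.0036, but 0.15 after quantile normalization). In WT its change at 6 hr was −0.22 (adjusted p = 0.096, and 0.012 with the mouse as a block) and turned to 0.10 after quantile normalization. At 9 hr in Cpeb4-/- Mmp8 changed by −0.28 (adjusted p = 0.041), a call lost without mouse 2, 3, 55 or 62 of that genotype or WT mouse 69. Mmp12 was higher at 3 hr by 0.28 in WT (adjusted p = 0.049) and 0.29 in Cpeb4-/- (adjusted p = 0.041), but after quantile normalization these values were −0.39 and −0.31. The call in WT was lost without WT mouse 25, 87 or 88 or Cpeb4-/- mouse 55 or 62, and that in Cpeb4-/- without mouse 2, 55 or 62 of that genotype or WT mouse 88.

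The direction of the early Mmp12 change thus turned with the scaling, as it did at 1 and 6 hr. With the mouse as a block the small changes of Mmp12 were also called at 6 hr in WT (0.11, adjusted p = 0.036) and at 1 and 6 hr in Cpeb4-/- (0.14, adjusted p = 0.013, and 0.12, adjusted p = 0.017). At 9 hr Mmp12 was lower in WT by 0.34 (−0.34, adjusted p = 0.014), and −0.93 after quantile normalization. In Cpeb4-/- it changed by −0.27 (adjusted p = 0.049), a call lost without mouse 2, 55 or 62 of that genotype or WT mouse 87 or 88. Quantile normalization moved the median of all genes by −0.07 to 0.051 only.

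Whether the response to LPS differed between genotypes was tested for the 7 members other than Mmp8 and Mmp12. Without the mouse as a block, 0 of 7 were called at each time. At an unadjusted p under 0.05 there were 0, 1, 5 and 3 at 1, 3, 6 and 9 hr, and the lowest adjusted p was 0.088. The share called over all genes was 0.00763%, 0.206%, 2.94% and 1.76%. With each mouse compared with its own untreated cells, 0, 1, 5 and 2 of 7 were called, beside 0.00763%, 0.549%, 7.88% and 4.99% of all genes.

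At 6 hr the rise of Timp1 was larger in Cpeb4-/- by 0.57 (SE 0.17, adjusted p = 0.037 with the block and 0.088 without). The rises from 0 to 6 hr were 2.35 to 2.88 in the WT mice and 2.99 to 3.48 in the Cpeb4-/- mice, without overlap. The rise of Mmp13 was smaller by 0.30 (−0.30, SE 0.08, adjusted p = 0.014 with the block and 0.13 without). It was 3.95 to 4.07 in WT mice and 3.60 to 3.89 in Cpeb4-/- mice, again without overlap. Timp2 changed by −0.84 to −0.64 in WT and −1.04 to −0.96 in Cpeb4-/- (difference −0.25, SE 0.06, adjusted p = 0.0073 with the block and 0.17 without). Mmp19 changed by 0.08 to 0.30 in WT and −0.47 to −0.11 in Cpeb4-/- (difference −0.39, SE 0.11, adjusted p = 0.031 with the block and 0.17 without). In these 4 genes no mouse of one genotype fell in the range of the other, as in 11.8% of all genes.

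Mmp14 rose more in Cpeb4-/- by 0.28 at 3 hr (adjusted p = 0.018 with the block and 0.34 without) and 0.20 at 6 hr (adjusted p = 0.036 and 0.25). At 9 hr the differences called with the block were those of Mmp9 (0.49, adjusted p = 0.019 with it and 0.17 without) and Mmp13 (−0.27, adjusted p = 0.037 and 0.24). Within batches 1 and 2 the difference at 6 hr was 0.67 and 0.46 for Timp1, −0.32 and −0.28 for Mmp13, −0.20 and −0.29 for Timp2, −0.45 and −0.33 for Mmp19, and 0.30 and 0.10 for Mmp14. At 9 hr that of Mmp9 was 0.60 and 0.38. With the block, leaving out single mice, an alternative chosen after seeing the data, left 0 calls at 6 hr without Cpeb4-/- mouse 62, and 2 without Cpeb4-/- mouse 3 or WT mouse 87. At 9 hr it left 0 without Cpeb4-/- mouse 62 or WT mouse 87. Members not called with all mice were gained without Cpeb4-/- mouse 2 (Mmp14 at 9 hr), Cpeb4-/- mouse 55 (Mmp9 at 6 hr) and WT mouse 88 (Adam8 at 9 hr). The call at 3 hr was lost without Cpeb4-/- mouse 3, 55 or 62 or WT mouse 87 or 88. At 6 hr that of Timp1 was lost without Cpeb4-/- mouse 2, 3 or 62 or WT mouse 25 or 87, that of Mmp19 without Cpeb4-/- mouse 3 or 62 or WT mouse 87, and that of Mmp14 without any mouse but Cpeb4-/- mouse 2 and WT mouse 25. Those of Mmp13 and Timp2 at 6 hr were lost without Cpeb4-/- mouse 62 (adjusted p = 0.076 and 0.052) and kept without each other mouse. At 9 hr that of Mmp9 was lost without Cpeb4-/- mouse 2, 3 or 62 or WT mouse 87 or 88, and that of Mmp13 without Cpeb4-/- mouse 2 or 62 or WT mouse 25, 69 or 87.

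For Mmp8 and Mmp12 the same differences are given without a test. They lay between −0.18 and 0.02 for Mmp8 and between 0.01 and 0.07 for Mmp12 over the 4 times. The genotype gap of both genes was thus present before LPS and changed by less than its size in untreated cells.

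The 3′ UTRs of the members are shown because AU-rich elements (ATTTA) and CPEs bear on mRNA stability and CPEB4 binds CPEs. In the longest annotated GENCODE 3′ UTR of each gene, Timp3 held 8 ATTTA, Mmp12 and Mmp13 6 each, Mmp9 5 and Mmp19 1, and the other members 0. Of 21010 genes 65.2% held at least 1 and 28% at least 4. The CPE letters (TTTTAT or TTTTAAT) occurred 6 times in Mmp12 and Timp3, 3 times in Mmp13, 2 times in Mmp8, Mmp9 and Timp2, and 1 time in Adam8 and Mmp19. Mmp14 and Timp1 held none, where 56.6% of genes held at least 1. The windows richest in ATTTA, with ATTTA in capitals (mm10, plus strand), are these.
Mmp12, chr9:7360343-7360371: atgtattATTTAtattaaagtgttATTTA
Mmp13, chr9:7282125-7282153: ttaaaagttgttATTTAtctcccagagag
Mmp9, chr2:164955822-164955850: aaatgaataaatgaatATTTActtATTTA
Timp3, chr10:86346211-86346239: ttgaaaaATTTAtcccattggggcATTTA

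The relation of these letters to the differences between genotypes was not tested.

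The rest of the chromosome 9 segment was described because Mmp8 and Mmp12 share it. Within 1 Mb of either gene the table held 21 genes, of which 3 were members and 7 of the other 18 passed the filter. Dcun1d5, before Mmp13, differed by 0.00, −0.11, −0.04, 0.04 and −0.05 at the 5 times. Mmp27, which follows Mmp8, differed by 0.21, 0.06, 0.00, −0.06 and 0.03. Neither gene was called at any time. Of the 7 neighbours 2 were called, both at 6 hr, when 16.3% of all genes were, and named after their values were seen: Mmp10 (stromelysin 2, between Mmp12 and Mmp8), with 0.56 (SE 0.16, adjusted p = 0.038), and Birc2, an inhibitor of cell death, with −0.19 (adjusted p = 0.012). The calls at 6 hr numbered 1 without any of 6 single mice (Cpeb4-/- 2, 3, 55 and 62, WT 69 and 88). The strain of origin of this segment in each mouse, in a mixed background, was not tested.

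**Figure D5:**
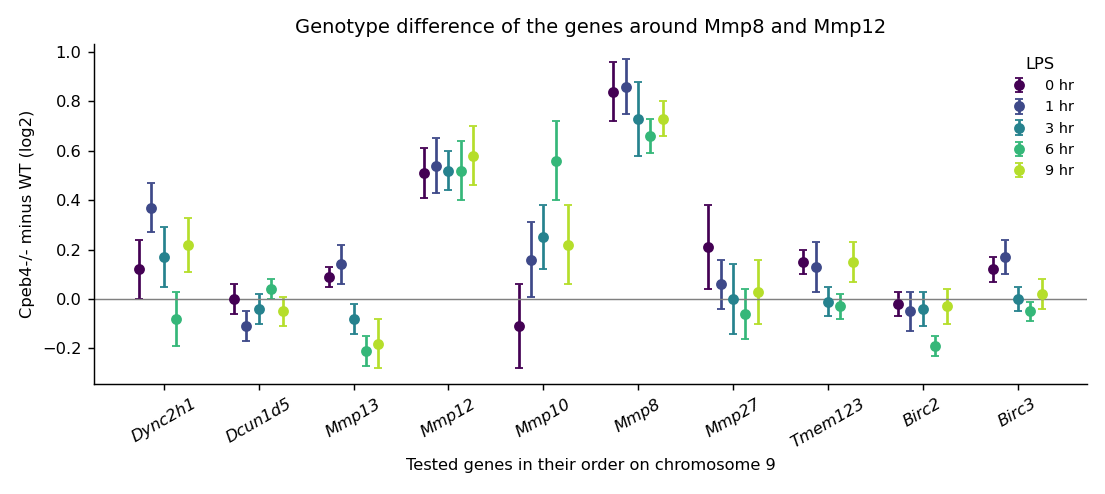
Difference in expression, Cpeb4-/- minus WT (rlog, log2 scale), of the expressed genes around Mmp8 and Mmp12 in their order on chromosome 9, 1 point for each time. Mmp12 (0.51 to 0.58) and Mmp8 (0.66 to 0.86) stand above 0 at all times, Mmp10 between them spreads from −0.11 to 0.56, and Mmp13 between Dcun1d5 and Mmp12 lies between −0.21 and 0.14.

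Beyond the 10 genes, 65 related genes were read from 4 lists of other MMPs, ADAM and ADAMTS proteases, protease regulators and matrix proteins. After 9 hr of LPS in WT, 28 of the 36 tested were called, 18 higher and 10 lower, beside 73.7% of all genes (37.0% higher and 36.6% lower). Of 6 other MMPs, 3 rose and 2 fell. Mmp25, a membrane-anchored MMP, changed by 3.48 (adjusted p = 2e-24), Mmp2, a gelatinase, by 0.68 and Mmp10 by −0.73. Of 10 ADAM-type genes 4 rose, among them the aggrecanase Adamts4 (1.23), and 3 fell, among them Adam22 (−1.06) and Adamts10 (−0.94).

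Of 14 protease regulators 8 rose and 5 fell. Serpinb2, an inhibitor of plasminogen activation, changed by 3.85, and Thbs1, a thrombospondin, by 2.31. Of 6 matrix genes 3 rose and 0 fell at the adjusted threshold. These were Vcan, the proteoglycan versican (3.50), the collagen IV chain Col4a2 (1.36) and the laminin chain Lamc1 (0.68). In Cpeb4-/- the change of Serpinb2 was 4.6, that of Thbs1 3.43 and that of Vcan 3.95.

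Between genotypes 3 and 2 of 37 related genes were called at 0 and 1 hr, and 5, 8 and 7 of 36 at 3, 6 and 9 hr, beside the shares of all genes given above. Leaving out single mice moved these counts to 0 to 3, 0 to 7, 3 to 11, 4 to 7 and 4 to 16. The highest counts were 7 at 1 hr without WT mouse 69, 11 at 3 hr without WT mouse 88 and 16 at 9 hr without Cpeb4-/- mouse 2.

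Spp1 (osteopontin, a matrix glycoprotein cut by MMPs) was lower in Cpeb4-/- at all 5 times, with differences of −0.49, −0.54, −0.54, −0.40 and −0.49 (adjusted p = 0.016, 0.025, 0.013, 0.0090 and 0.013). Serpinb2 was higher by 1.07 (SE 0.09, adjusted p = 4.7e-05) at 6 hr and 0.78 (adjusted p = 0.0061) at 9 hr, and 0.02 at 0 hr. Its rise to 6 hr was larger in Cpeb4-/- by 1.04 (adjusted p = 0.0016 without the block).

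Vcan was higher by 0.87 (SE 0.08, adjusted p = 0.00056) at 3 hr. Fn1 (fibronectin) was higher by 0.64 at 6 hr (adjusted p = 0.036) and 0.93 at 9 hr (adjusted p = 0.034). Plat (tissue plasminogen activator) was higher by 0.77 at 3 hr (adjusted p = 0.013). Thbs1 was higher by 0.53 at 6 hr (limma, adjusted p = 0.00082) and 1.04 at 9 hr (limma, adjusted p = 0.007). Spp1, Fn1 and Plat were named because this same contrast called them at 2 or more times. The call of Fn1 at 6 hr was lost without Cpeb4-/- mouse 2, 3 or 62 or WT mouse 25, 87 or 88, and that at 9 hr without Cpeb4-/- mouse 3 or 62 or WT mouse 25, 87 or 88. That of Plat was lost without Cpeb4-/- mouse 3, and those of Spp1 at 0 hr without Cpeb4-/- mouse 2 and at 1 hr without Cpeb4-/- mouse 55 or 62 or WT mouse 25 or 88. Without the filter on low expression the calls of Spp1, Fn1 and Plat were lost, and Spp1 at 1 hr was also lost after quantile normalization (adjusted p = 0.053).

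Markers of other cells were read because neutrophils store Mmp8 and Mmp9 and osteoclasts express Mmp9 and Mmp14. Of 12 neutrophil markers 4 passed the filter over all libraries. These were S100a8 (rlog of 5.0 to 7.7), S100a9 (3.93 to 6.01), Ngp (2.22 to 4.59) and Camp (2.0 to 5.0). Among those that failed it, Ly6g lay at −2.34 to −2.27, Elane at −1.63 to −1.19 and Mpo at −0.33 to 0.68. The summed level of the neutrophil markers in untreated libraries was 74.5 to 142 in WT against 86.8 to 105 in Cpeb4-/-. None of these markers was called between genotypes, and their ranges overlapped at each time.

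Of the osteoclast markers 3 of 6, 1 of 6, 1 of 6, 2 of 7 and 2 of 7 tested were called at the 5 times, each higher in Cpeb4-/-, beside 1.31%, 1.91%, 3.68%, 16.3% and 7.91% of all genes. Dcstamp, Ocstamp and Itgb3 were not called at any time. Of 8 markers 6 passed the filter over all libraries. At 0 hr all 8 summed to a level of 4030 to 4810 in WT, below the 4990 to 5710 in Cpeb4-/- libraries. This sum mostly follows Atp6v0d2, with a mean rlog of 10.92 over all libraries against 9.83 for Dcstamp, the next highest. Ctsk (cathepsin K) was higher in Cpeb4-/- by 0.68, 0.60, 0.68 and 0.53 at 0, 1, 3 and 6 hr (adjusted p = 0.0048, 0.025, 0.0019 and 0.0036). Acp5 was higher by 0.44 at 0 hr (adjusted p = 0.032), 0.40 at 6 hr and 0.49 at 9 hr, Atp6v0d2 by 0.32 at 0 hr (adjusted p = 0.044) and Calcr by 0.68 at 9 hr (adjusted p = 0.047). Of 8 stromal markers 2 passed the filter, and Pdgfrb was higher by 0.67 at 6 hr (adjusted p = 0.00022) and 0.65 at 9 hr (adjusted p = 0.018). At 6 hr the summed stromal level of 384 to 435 in WT lay below that of Cpeb4-/- libraries (596 to 720). This sum mostly follows Pdgfrb, which had a mean rlog of 7.37 over all libraries. The other stromal markers had means of 0.12 (Pdgfra) to 2.42 (Dcn).

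Of the 7 macrophage markers 0, 0, 1, 4 and 2 were called at the 5 times, each lower in Cpeb4-/-, beside the same shares of all genes. Lyz2 differed by −0.55 at 3 hr (adjusted p = 0.011) and −0.38 at 6 hr (adjusted p = 0.019), and Csf1r, the receptor of M-CSF, by −0.25 at 6 hr (adjusted p = 0.0044). Cd68 differed by −0.26 and −0.25 and Fcgr1 by −0.28 and −0.31 at 6 and 9 hr. Of 6 dendritic cell markers 4 passed the filter. At 0 hr all 6 summed to a level of 57.6 to 87.0 in WT, overlapping the 56.2 to 61.4 in Cpeb4-/- libraries. At 9 hr the 84.2 to 110 in WT lay above the 81.8 to 84.0 in Cpeb4-/-. This sum mostly follows Xcr1, with a mean rlog of 6.04 over all libraries against 3.51 for Itgae, the next highest. Clec9a was higher in Cpeb4-/- by 0.88 at 0 hr (adjusted p = 0.044) and Zbtb46 by 1.10 at 3 hr (adjusted p = 0.0068), and Xcr1 differed by −0.49 at 6 hr (adjusted p = 0.012). In bulk RNA, fewer cells of a type and less RNA per cell cannot be told apart, and the part of these markers in the differences of the proteases was not tested.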

How the data were processed

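RNA-seq of 40 BMDM libraries was analysed from the table of log2 values (rlog) that the authors deposited. The authors made poly(A) libraries, aligned reads with STAR 2.3.0e to mm10, counted them per gene with featureCounts and applied the rlog transformation of DESeq2. All 40 value columns were used (0 left out), and 6395 genes were listed at 0 in every library. Counts were not used here, so read depth and counting error are not given.

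WT and Cpeb4-/- were compared at each time over 8 libraries, and LPS changes with all 40 libraries in a single model with 10 groups (13103 genes), with limma 3.58.1 (lmFit, eBayes with trend, two-sided, Benjamini-Hochberg over all genes tested) in R 4.3.3. Genes with a mean rlog under log2 of 5 were left out. Blocks used the mouse as a fixed effect or as a random effect (statmod 1.5.0). Tables and figures used Python 3.11.15, pandas 2.3.3, numpy 2.4.6 and matplotlib 3.10.9. The fits without a block were tested on simulated data, with libraries drawn independently and no effect of the mouse. The fits with a block were not tested in this way.

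Same-numbered libraries come from the same mouse, per the labels. With group means taken out, the median correlation was 0.29 between libraries of a mouse, over 0.1 in 68 of 80 pairs with −0.19 the lowest, and −0.09 between mice of a genotype. The p-values between genotypes at each time measure the spread between mice. The fit of LPS changes without a block took the 40 libraries as independent, though each mouse gave 5 of them. Its p-values thus mix the spread between mice with that within mice. With the mouse as a fixed effect they measure the spread within mice. The members and lists were chosen with earlier results of these data known. The text names the 10 members, from each list of related genes the 3 with the largest called change at 9 hr in WT, up to 5 related genes called between genotypes at 2 or more times, and the nearest expressed neighbours of the chromosome 9 pair. A gene that this rule would name is not reported here. The alternatives are given in the closing section.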

Additional observations from a re-analysis of the deposited data

Results flagged for a closer look

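A single library stood apart in 7 of 100 groups of 4 libraries by Dixon's test, where chance gives about 1 in 20. Mmp9 at 6 hr in Cpeb4-/- mouse 55 had an rlog of 9.16, against 9.40 to 9.42 in the other mice. Mmp12 at 1 hr in WT mouse 69 had 15.35, against 14.99 in the others. Mmp14 at 6 hr in Cpeb4-/- mouse 2 had 14.31, against 14.50 to 14.51. The remaining 4 were Timp3 near its floor: 1.0 at 9 hr in WT mouse 88 (others 0.48 to 0.52), 0.94 at 0 hr in Cpeb4-/- mouse 2 (others 0.41 to 0.45), 0.47 at 1 hr in Cpeb4-/- mouse 62 (others 0.77 to 0.79) and 2.71 at 9 hr in Cpeb4-/- mouse 55 (others 1.20 to 1.43).

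With the mouse as a replicate block, the change after LPS differed between genotypes in 8 cases (limma, Cpeb4-/- minus WT, adjusted p in brackets): Mmp14 by 0.28 at 3 hr (0.018) and 0.20 at 6 hr (0.036), Mmp13 by −0.30 at 6 hr (0.014) and −0.27 at 9 hr (0.037), Mmp19 by −0.39 (0.031), Timp1 by 0.57 (0.037) and Timp2 by −0.25 (0.0073) at 6 hr, and Mmp9 by 0.49 at 9 hr (0.019). Without the block 0 of these were called.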

How the results depend on the processing

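The differences of Mmp8 and Mmp12 between genotypes stayed positive under each setting. On leaving out single mice they lay between 0.62 and 0.96 and between 0.41 and 0.67. As the genotypes did not overlap at any time, leaving out a mouse could change only the size, not the sign. The filter and the eBayes settings do not alter these differences, so a kept sign there is no check. Values below are counts of calls unless said otherwise, and the cause of each shift was not tested.

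Each mouse gave all 5 times, and this pairing was used as a replicate block. The replicate block with the mouse as a fixed effect called 1 member at 3 hr, 5 at 6 hr and 2 at 9 hr for the difference of LPS changes, against 0 without it, and with the mouse as a random effect 4 at 6 hr and 1 at 9 hr. Leaving out single mice with the block gave 0 to 1, 0 to 5 and 0 to 2. The block moved no member count of LPS calls by over 1.5 times.

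Quantile normalization gave 7 members changed by LPS at 1 hr in WT and 6 in Cpeb4-/- (3 each otherwise). It turned the LPS change of Mmp12 to −0.35, −0.39 and −0.77 at 1, 3 and 6 hr in WT and −0.31, −0.31 and −0.60 in Cpeb4-/-, of Mmp8 in WT to 0.13, 0.10 and 0.09 at 3, 6 and 9 hr, of Timp2 at 1 hr in WT to −0.26, of Adam8 at 1 hr to −0.39 in WT and −0.33 in Cpeb4-/-, of Mmp9 at 1 hr in Cpeb4-/- to 0.0, and the genotype difference of Serpinb2 at 0 hr to −0.01.

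Members called between genotypes numbered 0, 0, 0 and 3 at 0, 1, 3 and 6 hr without the filter on low expression, 1, 1 and 1 at 0, 1 and 3 hr with eBayes without trend, 1 at 0 hr and 5 at 6 hr after quantile normalization, 1 at 1 and 3 hr and 5 at 9 hr with batch as a covariate, and 4 at 1 hr and 5 at 9 hr in a fit of all 40 libraries, both with a replicate block and without. Related genes called numbered 1, 0, 2, 2 and 3 at the 5 times without the filter, 1 at 1 hr, 3 at 6 hr and 4 at 9 hr without trend, 1 at 1 hr and 11 at 9 hr with batch, 0 at 1 hr after quantile normalization, and 5, 13 and 12 at 0, 1 and 9 hr with all 40 libraries (6, 13 and 13 with the replicate block). Neighbours called numbered 2 at 1 hr with all 40 libraries (with or without the block) and 1 at 6 hr without the filter, with a mean rlog of at least 5 or without trend.

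Leaving out single mice, the genotype difference was 0.78 to 0.96, 0.77 to 0.93, 0.63 to 0.85, 0.62 to 0.72 and 0.71 to 0.78 for Mmp8 at the 5 times, and 0.44 to 0.60, 0.46 to 0.63, 0.48 to 0.56, 0.41 to 0.61 and 0.48 to 0.67 for Mmp12. Members called numbered 1 to 2, 1 to 4, 1 to 4, 6 to 8 and 2 to 5, related genes 0 to 3, 0 to 7, 3 to 11, 4 to 7 and 4 to 16, and neighbours 0 to 1 at 1 hr, 1 to 2 at 6 hr and 0 to 2 at 9 hr. Members changed by LPS in WT at 3 hr numbered 3 to 7. Changes near 0 turned sign: at 1 hr in WT without mouse 69 for Mmp8 (range −0.02 to 0.08), Timp2 (−0.02 to 0.05) and Adam8 (−0.01 to 0.04), at 1 hr in Cpeb4-/- for Mmp9 without mouse 55 or 62 (−0.15 to 0.08) and Timp2 without mouse 2 or 55 (−0.03 to 0.01), and between genotypes at 0 hr for Serpinb2 without Cpeb4-/- mouse 3 (−0.0 to 0.04). Depth is unknown, so weak genes such as Timp3 are limited by an unmeasured counting error.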

Other observations

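Over the 40 libraries, which are 5 times of 8 mice and so not independent, the gene whose values were most like those of Mmp12 was Itgax (Pearson r of 0.933), which encodes the integrin CD11c, followed by Penk (0.886) and Mamdc2 (0.881). For Mmp8 they were Gm6334 (0.897), Lipn (0.875) and 5730455P16Rik (0.831), on chromosomes 8, 19 and 11. Mmp8 and Mmp12 had r of 0.683 with each other, a value that takes in the genotype difference by which both were chosen. Mmp13 and Mmp14 had r of 0.937 and Mmp13 and Timp1 0.934, with LPS moving all libraries together. These are descriptions without a test.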
